A study of Sus scrofa with 10 samples.

Results

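The SLC25 genes encode the mitochondrial carrier family, and 39 of them were found by symbol, SLC25A followed by a number, among the 12378 genes of the deposited table that have a symbol. Expression was measured by RNA sequencing of right ventricular biopsies from 10 pigs. CTEPH libraries s1, s3, s4, s5 and s9 came from 5 pigs with chronic thromboembolic pulmonary hypertension, a disease in which clots that do not dissolve narrow the lung arteries and raise the pressure against which the right ventricle pumps. Sham libraries s2, s6, s7, s8 and s10 came from 5 sham pigs. The labels name no strain, age, sex or drug, nor how the disease was induced or for how long. The design asks which transcripts differ in the remodelled right ventricle, and here that question is put to the carriers.

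Mitochondrial carriers sit almost all in the inner mitochondrial membrane, which is otherwise closed to charged metabolites. Each moves a particular set of small molecules between cytosol and matrix: ADP and ATP, phosphate, acids of the citric acid cycle, acylcarnitines, amino acids, cofactors or iron. In the heart they feed fuel to the matrix, carry reducing equivalents of NADH inward as malate and aspartate, and export the ATP that drives contraction. UCP2, UCP3 and MTCH1 belong to the same protein family under other symbols and are given with the related genes.

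Of 48 carriers listed by role, 9 (SLC25A2, SLC25A18, SLC25A29, SLC25A31, SLC25A37, SLC25A48, SLC25A51, SLC25A52 and SLC25A53) had no matched row and are not analysed here. Values are log2 expression values, in which a difference of 1 is a doubling. They are not corrected for gene length, so levels are compared between pigs within a gene and not between genes.

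Of the 39 members 1, SLC25A45, had an adjusted p under 0.05, the threshold used throughout (limma, adjusted over every gene of the table after Benjamini and Hochberg), and it was lower in CTEPH. No member passed as higher. Over all genes 4.62% passed, 2.83% higher and 1.79% lower. An unadjusted p under 0.05 was reached by 7 members, 5 higher and 2 lower in CTEPH, against 20.3% of all genes, 9.84% higher and 10.5% lower. The median log2 fold change of the members, CTEPH minus Sham, was 0.01, beside -0.03 for all genes, and 33 of 39 members were within 0.5 of no change, beside 76.5% of all genes. The groups did not overlap in 2 members, SLC25A45 and SLC25A39, and in 6.57% of all genes. With libraries centred on a list of mitochondrial genes, the 443 higher and 280 lower genes of the whole table became 414 and 127.

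**Figure D1:**
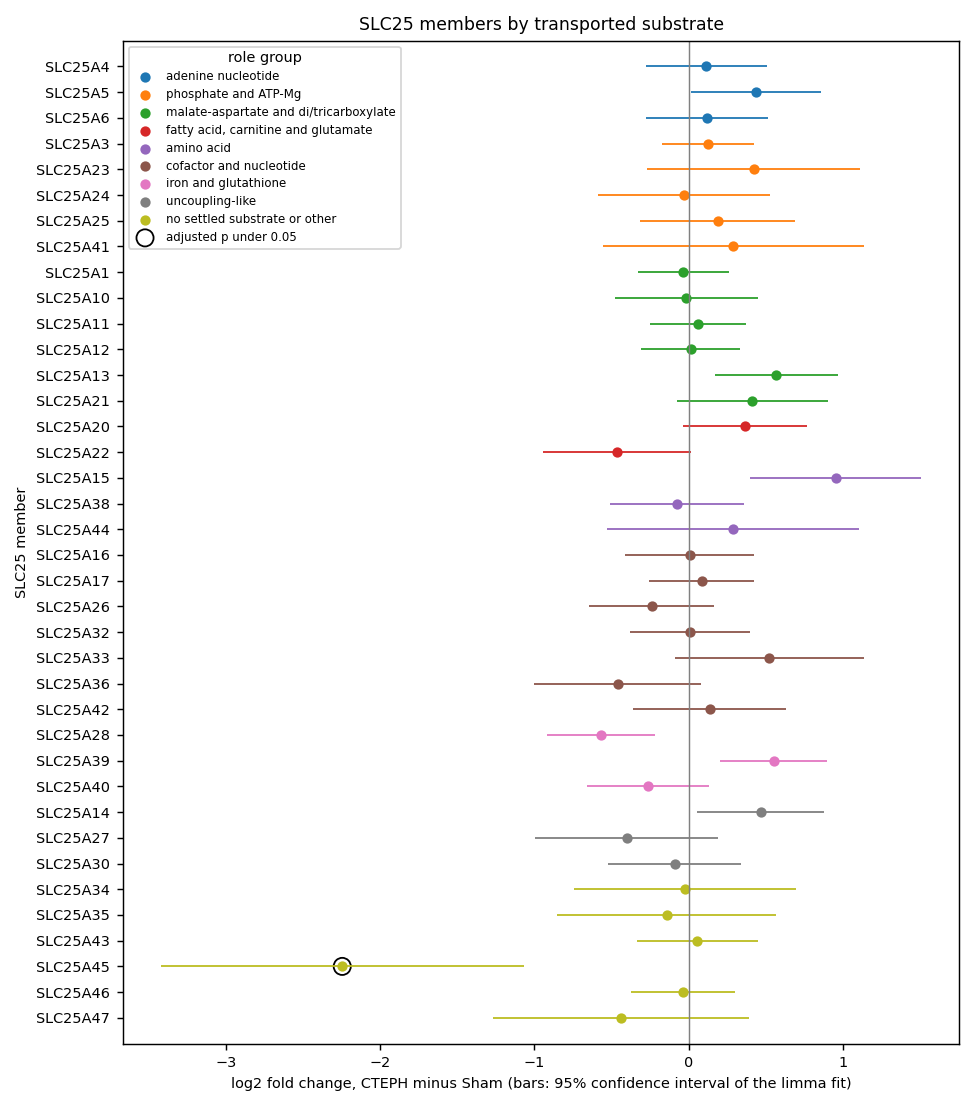
Log2 fold change (CTEPH minus Sham, horizontal axis) of the SLC25 members (vertical axis), coloured by role, with 95% confidence intervals of the limma fit; the black ring marks an adjusted p under 0.05. Apart from SLC25A45 at -2.25, the members lie between -0.57 and 0.95.

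Relative depth, read from the low counts that could be recovered from the table, ranged from 0.724 to 1.57 in CTEPH and from 0.748 to 1.51 in Sham libraries. The ventricular cardiomyocyte genes fixed as a check of the tissue were all high, with 8 of 10 measured and none with a mean log2 value under 15.6. Their summed level, as the log2 of summed values, was 21.2 to 21.5 in CTEPH and 20.9 to 21.4 in Sham. The summed level of 17 measured genes of mitochondrial content was 18.95 to 19.19 in CTEPH and 18.95 to 19.18 in Sham. In bulk tissue, fewer cells of a type and less RNA per cell cannot be told apart. The Y-linked gene KDM5D was at 0.16 in Sham library s6 and at 8.31 or above in the other 9 libraries. Another Y-linked gene, EIF1AY, was at 1.07 in s6 and at 10.69 or above in the other 9. The labels give no sex. Library s6 thus stood apart from the rest, and results are also given without it where it bears on them, as in X-linked members.

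SLC25A45 was the called member, a carrier whose substrate is less settled than those of most of the family (chromosome 2, 6851101 to 6857886 of Sscrofa11.1). Its log2 value was 3.35 in s1, 1.62 in s3, 3.0 in s4, 2.09 in s5 and 3.4 in s9, the CTEPH libraries. In the Sham libraries it was 5.45 in s2, 5.85 in s6, 5.21 in s7, 4.21 in s8 and 3.98 in s10. Every CTEPH library lay below every Sham library. The log2 fold change was -2.25 ± 0.54 (SE; adjusted p = 0.034 by limma), with a mean of 4.94 ± 0.81 over the Sham pigs and 2.69 ± 0.80 over the CTEPH pigs (SD, n = 5 each).

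These values stand on very few reads. Its recovered counts, known up to a factor of 2 common to all genes, were 4 in s1, 1 in s3, 7 in s4, 2 in s5 and 3 in s9, against 24 in s2, 44 in s6, 13 in s7, 7 in s8 and 6 in s10. Counts of s4, the deepest library, and of Sham libraries s8 and s10 were thus alike before scaling, and apart after it: 4.45 in s4, 8.59 in s8 and 7.11 in s10 per unit of relative depth. Summed over pigs, 17 counts in CTEPH and 94 in Sham put Sham 5.72-fold above CTEPH once scaled for depth. With counts taken as recovered, the 95% interval of that ratio ran from 3.39 to 10.2, and its width depends on the unknown common factor. That interval covers counting error only, not the spread between pigs.

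The call of SLC25A45 depended on single libraries. Leaving out s3, s4 or s5 of the CTEPH pigs ended it (adjusted p = 0.0693, 0.0596 and 0.0735 by limma), as did leaving out s2, s6 or s7 of the Sham pigs (0.0862, 0.0983 and 0.0825). The fold change stayed between -2.49 and -1.98 in the 10 refits without 1 library. With voom on the recovered counts, an alternative chosen after seeing the data, it was -2.27 (adjusted p = 0.0644 by limma), and leaving out the lowest 25% of genes removes SLC25A45 from the test.

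**Figure D2:**
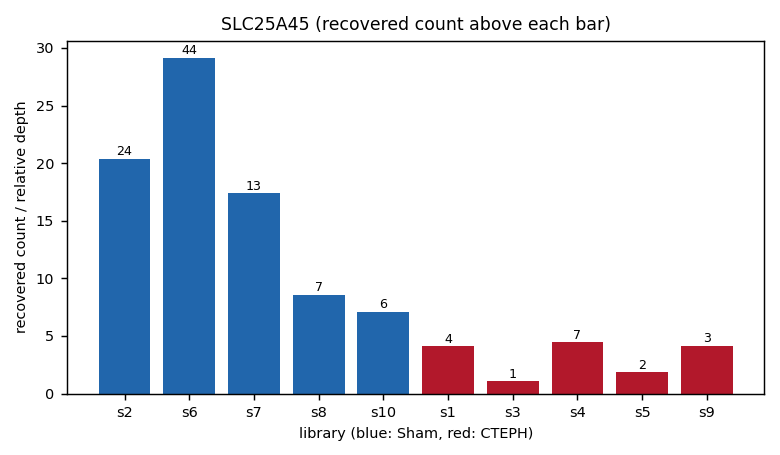
Recovered counts of SLC25A45 divided by relative depth (vertical axis) in each library (horizontal axis, Sham in blue and CTEPH in red), with the undivided count above each bar. The CTEPH bars end at or below 4.45 and the Sham bars at or above 7.11.

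The adenine nucleotide carriers exchange matrix ATP for cytosolic ADP. SLC25A4, or ANT1, is the isoform typical of heart and skeletal muscle (chromosome 15, 46193498 to 46197989). Its log2 value was 18.10 in s1, 17.64 in s3, 17.41 in s4, 17.47 in s5 and 17.84 in s9, and 17.38 in s2, 17.84 in s6, 17.70 in s7, 17.38 in s8 and 17.58 in s10. The groups overlapped, with s1 alone above every Sham library. The difference was 0.11 ± 0.18 (SE; 95% interval -0.28 to 0.51; adjusted p = 0.774 by limma).

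SLC25A5, or ANT2, is the isoform known from dividing and glycolytic cells and lies on the X chromosome (97919295 to 97922245). CTEPH libraries held log2 values of 11.09 in s1, 10.05 in s3, 10.25 in s4, 10.60 in s5 and 10.65 in s9. Sham libraries held 9.78 in s2, 10.03 in s6, 9.97 in s7, 10.39 in s8 and 10.27 in s10. Thus s1, s5 and s9 lay above all Sham libraries, while s3 and s4 lay among them. Its difference of 0.44 ± 0.20 had an unadjusted p of 0.0436 and did not pass (adjusted p = 0.229 by limma). Without s6 it was 0.42 (adjusted p = 0.347). In the list of dividing cell genes, 7 of 7 measured genes rose, with a median log2 fold change of 3.60 and a summed level of 11.0 to 12.7 in CTEPH against 8.99 to 9.54 in Sham. The largest of these rises was in UBE2C, and the part of dividing cells in the SLC25A5 values was not tested. Among CTEPH libraries UBE2C was lowest in s1, at 8.45, and read 8.66 in s3, 9.54 in s4, 9.80 in s5 and 9.75 in s9.

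SLC25A6, or ANT3, is a further, widely expressed isoform. It read 14.37 in s1, 14.37 in s3, 15.08 in s4, 14.96 in s5 and 15.03 in s9, and 14.30 in s2, 14.60 in s6, 14.89 in s7, 14.58 in s8 and 14.85 in s10. CTEPH libraries s4, s5 and s9 were above every Sham library, and s1 and s3 were near the lowest one. The difference was 0.12 ± 0.18 (adjusted p = 0.771 by limma). Among CTEPH pigs the isoforms did not share an order, since s1 was highest for SLC25A4 and SLC25A5 and among the lowest for SLC25A6.

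The phosphate carrier SLC25A3 brings in the phosphate that ATP synthase needs, and also copper (chromosome 5, 85284405 to 85292336). It was the member with the smallest spread, a pooled SD of 0.129, against 0.330 for the median member and 0.354 for the median gene. Its log2 value was 16.73 in s1, 16.90 in s3, 16.65 in s4, 17.03 in s5 and 16.83 in s9, and 16.76 in s2, 16.61 in s6, 16.83 in s7, 16.57 in s8 and 16.73 in s10. The groups overlapped, and the difference was 0.13 ± 0.14 (95% interval -0.17 to 0.43; adjusted p = 0.658 by limma).

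Of the calcium-regulated carriers that exchange ATP-Mg for phosphate, SLC25A23, SLC25A24, SLC25A25 and SLC25A41, none passed in the limma fit (0 had an unadjusted p under 0.05), and their differences ran from -0.03 to 0.42. SLC25A23 and SLC25A41, described here after their values were seen, are neighbours on chromosome 2 with 1932 bases between them. SLC25A23 ranged from 9.73 in s9 to 11.75 in s3 among CTEPH pigs and only from 10.04 to 10.76 among Sham pigs. SLC25A41 was likewise lowest in s9, at 4.78, and highest in s4 and s3, at 6.69 and 6.64, with 5.27 to 6.24 in Sham. Both genes thus had s3 and s4 above and s9 below every Sham library. Their differences were 0.42 ± 0.32 and 0.29 ± 0.39 (adjusted p = 0.507 and 0.731 by limma), and leaving out 1 library moved them between 0.18 and 0.68 and between 0.10 and 0.58. SLC25A41 was low, with 9 to 87 recovered counts per library.

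The malate-aspartate shuttle carries reducing equivalents of NADH into the matrix. Its aspartate-glutamate step has 2 isoforms, the muscle and brain form SLC25A12 (aralar) and the liver form SLC25A13 (citrin). SLC25A13 (chromosome 9, 75781421 to 75980606) had log2 values of 9.72 in s1, 10.30 in s3, 10.36 in s4, 10.56 in s5 and 9.77 in s9. In Sham it was 9.81 in s2, 9.72 in s6, 9.53 in s7, 9.45 in s8 and 9.37 in s10. Libraries s3, s4 and s5 lay clearly above Sham, and s1 and s9 lay within the Sham range. The difference of 0.57 ± 0.18 did not pass (adjusted p = 0.102 by limma), except without CTEPH library s1 (0.67, adjusted p = 0.0445) and with library weights (0.69, 0.0224).

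SLC25A12 (chromosome 15, 77895935 to 78021930) read 12.88 in s1, 13.36 in s3, 13.27 in s4, 13.14 in s5 and 13.12 in s9, and 13.47 in s2, 12.85 in s6, 13.29 in s7, 12.89 in s8 and 13.21 in s10. All CTEPH values fell inside the Sham range. The difference was 0.01 ± 0.15 (95% interval -0.31 to 0.33; adjusted p = 0.976 by limma), with the sign turning in 4 of the 10 refits without 1 library. SLC25A11, the oxoglutarate carrier of the same shuttle, read 13.12 in s1, 13.25 in s3, 13.42 in s4, 13.25 in s5 and 13.29 in s9, and 13.48 in s2, 13.09 in s6, 13.45 in s7, 12.80 in s8 and 13.21 in s10. It too had every CTEPH library inside the Sham range, with a difference of 0.06 ± 0.14 (95% interval -0.25 to 0.37; adjusted p = 0.859).

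The other carriers of organic acids did not pass. The citrate carrier SLC25A1, which supplies cytosolic acetyl units, read 9.74 in s1, 9.98 in s3, 10.11 in s4, 9.80 in s5 and 9.65 in s9, and 9.85 in s2, 9.89 in s6, 10.005 in s7, 9.70 in s8 and 10.0005 in s10. Its CTEPH libraries spread around the Sham range on both sides, with a difference of -0.03 ± 0.14 (95% interval -0.33 to 0.26; adjusted p = 0.922 by limma). The dicarboxylate carrier SLC25A10 was at -0.01 and the oxodicarboxylate carrier SLC25A21, of lysine and tryptophan breakdown, at 0.41 (adjusted p = 0.980 and 0.336).

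SLC25A20, the carnitine-acylcarnitine carrier through which long-chain fatty acids enter the matrix (chromosome 13, 31523820 to 31553289), had log2 values of 11.66 in s1, 12.14 in s3, 11.52 in s4, 12.04 in s5 and 12.13 in s9. Sham values were 11.78 in s2, 11.96 in s6, 11.34 in s7, 11.09 in s8 and 11.50 in s10. Libraries s3, s5 and s9 were above all Sham libraries and s1 and s4 were not. The difference of 0.37 ± 0.19 did not pass (95% interval -0.03 to 0.77; adjusted p = 0.291 by limma). Its enzyme partners pointed in different directions without passing. The liver-type carnitine palmitoyltransferase CPT1A was at 0.88 ± 0.28, the muscle-type CPT1B at -0.37 ± 0.16 and the matrix enzyme CPT2 at 0.36 ± 0.21 (adjusted p = 0.0945, 0.222 and 0.370).

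SLC25A22, a glutamate carrier, was at 7.86 to 9.004 in CTEPH and 8.52 to 9.12 in Sham. CTEPH library s1 was inside the Sham range and the other 4 were below it. The difference was -0.47 ± 0.22 (adjusted p = 0.259 by limma).

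SLC25A15, the ornithine carrier of the urea cycle, had the largest positive difference of the family (chromosome 11, 15494176 to 15551172). The CTEPH values were 8.15 in s1, 8.63 in s3, 8.93 in s4, 9.20 in s5 and 8.58 in s9. The Sham values were 7.69 in s2, 7.56 in s6, 8.39 in s7, 7.13 in s8 and 7.98 in s10. Of the CTEPH libraries 4 lay above all Sham libraries, and s1 lay below s7. The difference was 0.95 ± 0.26 and missed the threshold (adjusted p = 0.0535 by limma). Recovered counts of 1166 over the CTEPH and 542 over the Sham libraries gave a depth-scaled ratio of 2.08. Its counting limits were 1.88 to 2.31 (95%) with counts taken as recovered. They cover counting error only, not the spread between pigs. The 95% interval of the limma difference, which includes that spread, ran from 0.40 to 1.51 in log2.

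Whether SLC25A15 passed depended on the setting. Without CTEPH library s1 its adjusted p was 0.0267 and without Sham library s7 it was 0.0359 (limma). Voom on recovered counts gave a difference of 1.05 (adjusted p = 0.0270), library weights 0.91 (0.0422) and centring on mitochondrial genes 1.0 (0.0322). It did not pass without the intensity trend (0.0712), with a robust variance prior (0.0536) or with the lowest 25% of genes left out (0.0585). Nor did it pass in the other 8 refits without 1 library, where the adjusted p ran from 0.061 to 0.121. By the exact permutation test the adjusted p was 0.160. No gene could pass that test, because its smallest possible p of 0.00794 became 0.121 after adjustment.

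Of the other amino acid carriers, SLC25A38, which brings in glycine for haem synthesis, was at -0.07 ± 0.20 and SLC25A44, known as a carrier of branched-chain amino acids, at 0.29 ± 0.38 (adjusted p = 0.877 and 0.722 by limma). SLC25A44 varied widely in both groups, from 7.40 in s9 to 9.08 in s5 in CTEPH and from 7.53 in s7 to 9.27 in s2 in Sham. Its pooled SD of 0.710 was exceeded among the members only by the 0.803 of SLC25A45.

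Carriers of iron and glutathione held 2 of the 7 members with an unadjusted p under 0.05. SLC25A28, or mitoferrin 2, imports iron for haem and iron-sulfur clusters (chromosome 14, 110795304 to 110805631). It read 11.19 in s1, 10.96 in s3, 10.76 in s4, 10.41 in s5 and 10.80 in s9, and 11.06 in s2, 11.61 in s6, 11.33 in s7, 11.52 in s8 and 11.45 in s10. CTEPH libraries s3, s4, s5 and s9 were below all Sham libraries, while s1 was above s2. The difference of -0.57 ± 0.16 did not pass (adjusted p = 0.0636 by limma), except without CTEPH library s1 (-0.66, adjusted p = 0.0273) and with library weights (-0.59, 0.0267). Of the 7 measured endothelial genes 0 had a positive difference, with a median log2 fold change of -0.36 and 3 at an unadjusted p under 0.05 by limma. TEK and FLT1 passed as lower in CTEPH, 2 of 7, beside 1.79% of all genes. Neither passed with libraries centred on mitochondrial genes or without s3, s4, s6 or s8, and at most 1 did without s7 or s10. The list had a summed level of 14.6 to 15.1 in CTEPH and 14.9 to 15.5 in Sham and no gene with a mean under 11.2. Their part in the SLC25A28 values was not tested.

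SLC25A39, which imports glutathione, the main thiol antioxidant of the matrix (chromosome 12, 18913261 to 18919761), had log2 values of 10.75 in s1, 10.86 in s3, 11.01 in s4, 10.52 in s5 and 10.33 in s9. Sham values were 10.14 in s2, 10.16 in s6, 10.33 in s7, 9.80 in s8 and 10.28 in s10. All CTEPH libraries were above all Sham libraries, but s9 and s7 were equal to the second decimal. The difference was 0.55 ± 0.16 and did not pass (adjusted p = 0.0708 by limma). It passed without s9 (0.64, adjusted p = 0.0298) and with library weights (0.57, 0.0341). Its close relative SLC25A40 was at -0.26 ± 0.18 (adjusted p = 0.463).

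Of 7 other genes of mitochondrial iron and haem, none passed in the limma fit and 1 had an unadjusted p under 0.05, beside 4.62% and 20.3% of all genes. That gene, ALAS1, encodes the first enzyme of haem synthesis outside red cell precursors and was at 0.47 ± 0.15 (adjusted p = 0.0922 by limma). The erythroid genes HBB and ALAS2, 2 of 5 listed, were at 0.82 ± 0.68 and 0.26 ± 0.46 (adjusted p = 0.549 and 0.799), with a summed level of 8.74 to 11.8 in CTEPH and 7.44 to 10.6 in Sham.

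**Figure D3:**
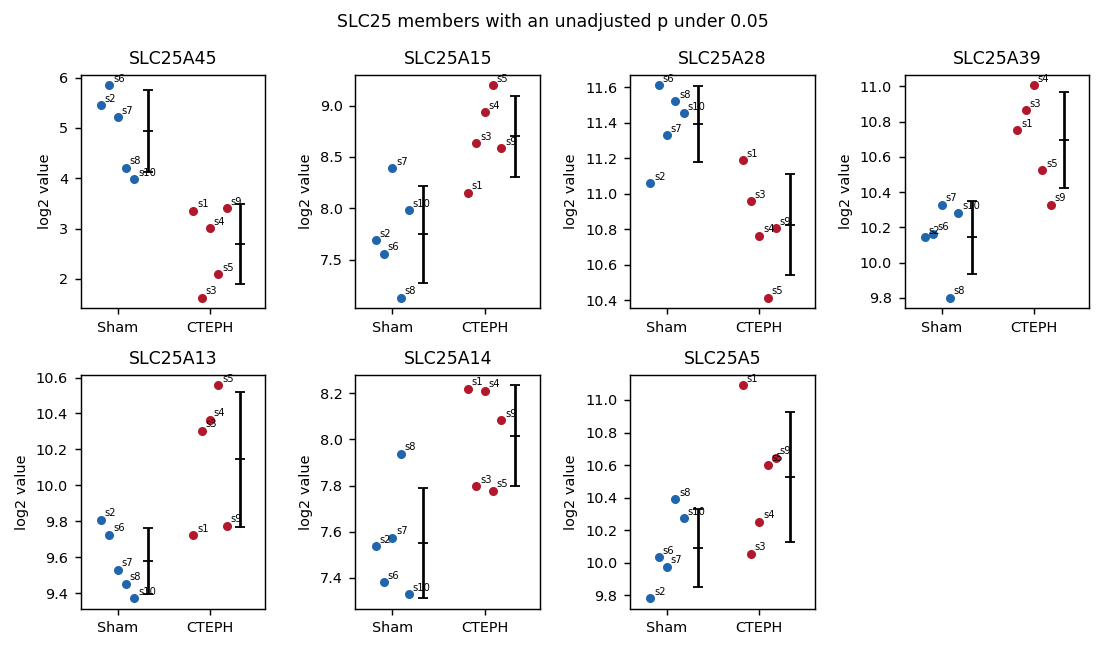
Log2 values (vertical axes, each with its own range that does not start at 0) of the 7 members with an unadjusted p under 0.05 in Sham (blue) and CTEPH (red) libraries, with mean and SD in black. Only SLC25A45 and SLC25A39 have groups that do not overlap, the latter by less than the second decimal.

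Among carriers known as relatives of the uncoupling proteins, SLC25A14 (UCP5, X chromosome, 106828695 to 106859128) had log2 values of 8.22 in s1, 7.80 in s3, 8.21 in s4, 7.78 in s5 and 8.08 in s9. In Sham it was 7.54 in s2, 7.38 in s6, 7.57 in s7, 7.94 in s8 and 7.33 in s10. Only s8 of the Sham libraries reached into the CTEPH range. The difference of 0.47 ± 0.19 did not pass (adjusted p = 0.187, and 0.330 without s6 by limma). SLC25A27 (UCP4) and SLC25A30 were at -0.40 ± 0.27 and -0.09 ± 0.20 (adjusted p = 0.449 and 0.844). Of the uncoupling proteins proper, UCP2 was at 0.51 ± 0.24 and UCP3, which the heart shares with skeletal muscle, at 1.36 ± 0.78 (adjusted p = 0.243 and 0.360). UCP3 ranged from 4.78 in s9 to 8.69 in s1 among CTEPH pigs.

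Among 8 measured carriers of cofactors and nucleotides none passed in the limma fit, and 0 had an unadjusted p under 0.05. SLC25A33 and SLC25A36, which carry pyrimidine nucleotides, were at 0.52 ± 0.28 and -0.46 ± 0.25 (adjusted p = 0.329 and 0.330 by limma). In SLC25A33 the CTEPH libraries kept to 9.50 to 9.90 while Sham ran from 8.18 in s6 to 9.9956 in s10. Without s6 the SLC25A33 difference was 0.27 (adjusted p = 0.597). The coenzyme A carriers SLC25A16 and SLC25A42 were at 0.01 ± 0.19 and 0.13 ± 0.23, and SLC25A17, of peroxisomes, at 0.08 ± 0.16. SLC25A26 (S-adenosylmethionine) and SLC25A32 (folate) were at -0.24 ± 0.19 and 0.01 ± 0.18. Adjusted p-values of these 5 carriers ran from 0.519 for SLC25A26 to 0.992 for SLC25A16.

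Besides SLC25A45, 5 carriers with no settled substrate or another function had differences of -0.44 to 0.06 and none passed. SLC25A46, an outer membrane protein of mitochondrial dynamics, was at -0.04 ± 0.16 and SLC25A43 at 0.06 ± 0.18 (adjusted p = 0.930 and 0.903 by limma). SLC25A43 lies on the X chromosome and was lowest in s6, at 8.85. In the refits without 1 library, that without s6 included, its difference ran from -0.037 to 0.15 (adjusted p = 0.714 to 0.978 by limma). SLC25A34 and SLC25A35 were at -0.03 ± 0.33 and -0.14 ± 0.33, and SLC25A47, known from the liver, at -0.44 ± 0.39 (adjusted p = 0.976, 0.854 and 0.569). SLC25A34 differed more between pigs than between groups: it was 12.26 in s3, 12.22 in s9 and 12.38 in s2, and 10.78 in s5, 10.99 in s4 and 10.96 in s7. High and low pigs of SLC25A34 occurred in both groups.

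**Figure D4:**
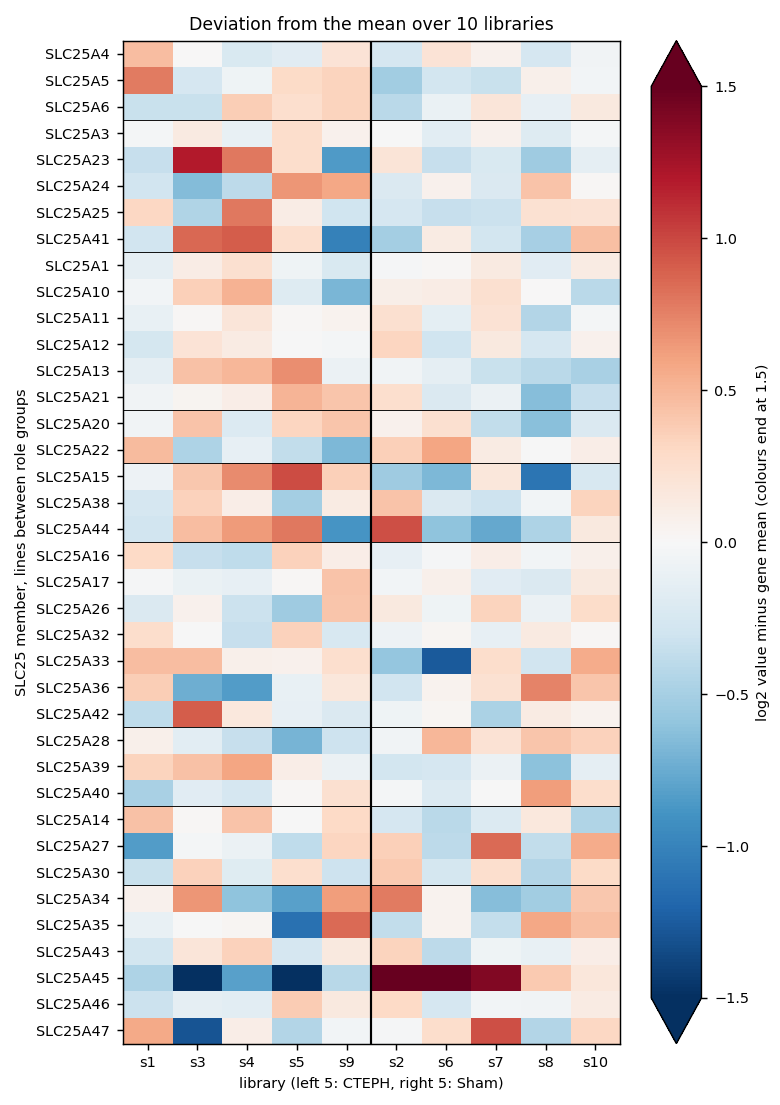
Log2 value of the SLC25 members, each minus its mean over the 10 libraries (colour, ending at 1.5 in either direction), with libraries in columns, CTEPH left of the black line and Sham right of it. SLC25A45 is the row with the deepest colours on both sides, and SLC25A23 and SLC25A41 share dark cells in s3, s4 and s9.

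Pairs of related carriers were compared as the difference of their log2 values within each library, in which gene length cancels between groups. The 6 pairs were chosen with earlier results of these data known. Of these, SLC25A28 with SLC25A37 could not be formed, and the other 5 were tested by permuting the libraries between groups (exact, two-sided), where the smallest p is 0.00794. SLC25A12 minus SLC25A13 was 3.57 ± 0.29 in Sham and 3.01 ± 0.29 in CTEPH (SD over 5 pigs in each group; exact permutation p = 0.0238, adjusted over the 5 pairs 0.0595). This pair reuses the member values given above, with SLC25A12 at 0.01 and SLC25A13 at 0.57, and is not separate evidence. SLC25A33 minus SLC25A36 was -2.71 ± 0.52 in CTEPH and -3.69 ± 0.65 in Sham (exact permutation p = 0.0238, adjusted 0.0595). SLC25A39 minus SLC25A40 was 0.49 ± 0.51 in CTEPH and -0.32 ± 0.49 in Sham (exact permutation p = 0.0397, adjusted 0.0661). Each of these pairs had overlapping groups and missed the threshold after adjustment.

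The muscle and the dividing-cell form of the adenine nucleotide carrier, SLC25A4 minus SLC25A5, were 7.49 ± 0.34 apart in Sham and 7.16 ± 0.27 in CTEPH (exact permutation p = 0.135, adjusted 0.169). SLC25A4 minus SLC25A6 was 2.93 ± 0.57 in CTEPH and 2.93 ± 0.22 in Sham (exact permutation p = 0.976, adjusted 0.976). Without CTEPH library s9 the SLC25A39 pair passed, and without Sham library s10 the SLC25A33 pair passed, each with a difference of differences of 1.0 and 1.14 and an exact permutation p of 0.00794 (adjusted 0.0397).

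**Figure D5:**
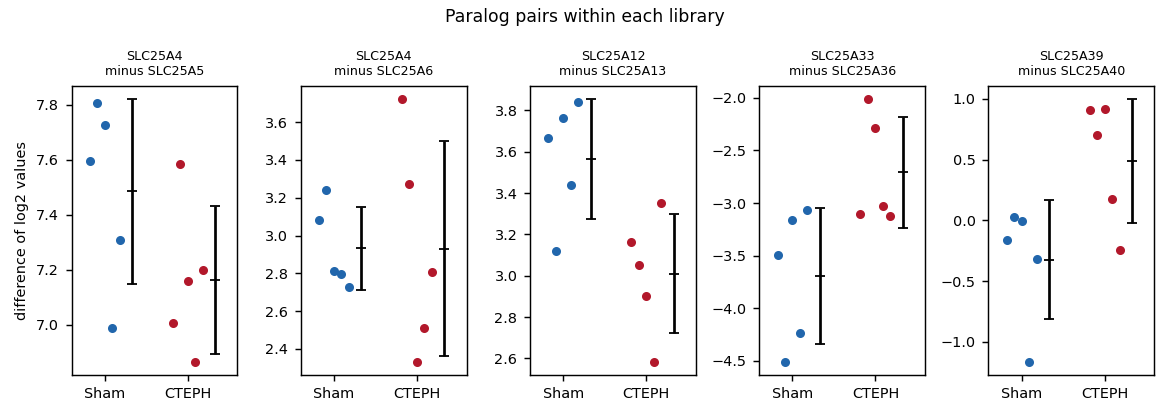
Difference of log2 values between 2 related carriers within each library (vertical axes, each with its own range), in Sham (blue) and CTEPH (red), with mean and SD in black. The groups overlap in all 5 pairs.

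Genes that work with the carriers were counted in the same fit. Over all genes 4.62% passed and 20.3% had an unadjusted p under 0.05, so lists this short would hold few calls at that share. Of 5 sideroflexins, which carry serine and other substrates, 7 calcium uniporter genes, 10 genes of the import machinery that inserts carriers into the membrane, 4 carnitine shuttle enzymes, 4 malate-aspartate enzymes and 3 glycerol phosphate shuttle enzymes, 0 passed by limma. Unadjusted p-values under 0.05 numbered 1, 0, 1, 2, 0 and 0 in these lists, and the median log2 fold changes were 0.02, 0.04, 0.07, 0.32, 0.11 and -0.01. The smallest p belonged to CPT1A, given above beside SLC25A20, followed outside the carnitine shuttle by SFXN5 at -0.77 ± 0.29 and TIMM29, a subunit of the carrier translocase, at -0.35 ± 0.14 (adjusted p = 0.157 and 0.189 by limma).

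All 4 malate-aspartate enzymes had positive differences without passing, from 0.06 in GOT1 to 0.26 in MDH1. The mitochondrial pyruvate carrier subunit MPC2 and the outer membrane channels VDAC1 and VDAC3 were at -0.04 ± 0.17, 0.11 ± 0.13 and -0.07 ± 0.12. In the limma fit 0 of the 17 genes of mitochondrial content passed and 0 had an unadjusted p under 0.05, beside 4.62% and 20.3% of all genes. Their median was -0.02. MTCH1, a carrier relative of the outer membrane, was at -0.03 ± 0.14, and the list of carrier relatives under other symbols had 0 of 3 passing and 1 at an unadjusted p under 0.05.

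Markers of the other cells of a biopsy were counted in the same fit, and their part in the carrier values was not tested. By limma 0 of 7 fibroblast, 0 of 7 macrophage, 0 of 4 lymphocyte, 0 of 2 adipocyte and 0 of 3 atrial genes passed, with 2, 2, 0, 0 and 3 at an unadjusted p under 0.05 and medians of -0.03, 0.38, 0.34, -0.53 and 1.83. Over all genes 4.62% passed and 20.3% had an unadjusted p under 0.05. CNN1 rose among 4 smooth muscle genes and MYL2 among 8 ventricular genes. No marker read under 2.54 in any library, the lowest being ADIPOQ in s1.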

How the data were processed

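The authors deposited log2 values of 15638 genes in 10 libraries, 1 per pig. Per the submitters' processing notes, which give no roles or order, the build was Sscrofa11.1 and the tools included limma 3.50.0, edgeR 3.36.0, featureCounts, FastQC 0.11.5, cutadapt 1.15 and bcl2fastq 2.18.12. Aligner, annotation and strand setting: not given in the sources used here, so reads of overlapping or near-identical genes could be shared. Library medians of 9.305 to 9.308 are what quantile normalization leaves, and a change common to most genes cannot appear. The low values equal quantile means of log2(2 × count + 1) to within 5.0e-10 (tolerance 1e-06). This gave whole counts for 52.8% of values and for 6763 genes in all libraries. Relative depth is the median ratio to the geometric mean over 5703 of these genes with at least 5 counts in each library. Totals cannot be read from the higher values.

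Symbols matched 12378 genes and coordinates came from the RefSeq table of Sscrofa11.1 by symbol. The comparison used limma 3.58.1 under R 4.3.3 (intensity trend, no covariate, two-sided), with p-values adjusted by Benjamini-Hochberg over all genes and a threshold of 0.05. Pairs were tested over the 252 assignments of libraries to groups. The fit was tested on simulated data. No cultures or batches are labelled, and p-values measure the spread between these 10 samples. Members, lists and pairs were chosen with earlier results of these data known. Library values are given for members with an adjusted or unadjusted p under 0.05 and for SLC25A1, SLC25A3, SLC25A4, SLC25A5, SLC25A6, SLC25A11, SLC25A12, SLC25A13, SLC25A20 and SLC25A28. For related lists called genes and up to 3 with the smallest p may be named, and other names were chosen after their values were seen. Alternatives were the variance prior, library weights, a filter on the lowest 25% of genes, centring, a per-gene permutation test, each library left out and voom on recovered counts. The values of 1 member, counted in the totals, are not reported or drawn here.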

Additional observations from a re-analysis of the deposited data

Results flagged for a closer look

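SLC25A17, the peroxisomal cofactor carrier, stood out in 1 CTEPH pig: its log2 value was 9.55 in s9, while the other CTEPH libraries lay between 8.998 and 9.14. The gap of s9 to its nearest neighbour was 0.744 of the range of the group, above the critical value of 0.71 of Dixon's test for 5 samples. It was the 1 value of its kind in 88 checks, of 39 members and 5 pairs in both groups, where chance gives about 1 in 20.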

How the results depend on the processing

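Over all genes, 723 passed, 443 higher and 280 lower in CTEPH. Library weights gave 1269, of which 722 were higher and 547 lower. Leaving out the lowest 25% of genes left 273 higher, and centring on the mitochondrial content list left 127 lower. A per-gene exact permutation test passed 0 genes in either direction, although 2914 had an unadjusted p under 0.05, beside 3181 by limma. Its smallest possible p of 0.00794 became an adjusted p of 0.121, which was also the lowest among the carriers. No gene could therefore pass that test, and its count of 0 decides nothing about any gene. Without 1 library the count ran from 401 to 961, with 270 to 570 higher and 117 to 392 lower, and it moved by over 1.5 times without CTEPH s4 or s5 or Sham s2, s6, s7 or s10. The causes of the other changes in count were not tested.

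Of the carriers, library weights called 5, 3 higher (SLC25A13, SLC25A15 and SLC25A39) and 2 lower (SLC25A28 and SLC25A45). Centring called 2, of which SLC25A15 was the 1 higher. Leaving out the lowest 25% of genes, which removes SLC25A45, called 0 of 35 (limma, 6 at an unadjusted p under 0.05). The permutation test, which no gene could pass, called 0 (6 at an unadjusted p under 0.05). Voom on recovered counts, chosen after seeing the data, tested 12 carriers and called 1 higher, SLC25A15, and 0 lower. Without 1 library 0 to 4 carriers passed, 0 to 2 higher and 0 to 2 lower, with the 4 reached without CTEPH s1. The causes of the other changes were not tested.

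Of the related gene lists 11 genes passed, 9 higher and 2 lower. Of the 9 higher, 7 were dividing cell genes and the others MYL2 and CNN1, and the 2 lower were TEK and FLT1. The lists of carrier partners and of mitochondrial genes held 0. Over all genes 2.83% passed as higher and 1.79% as lower. Leaving out the lowest 25% of genes left 7, of which 5 were higher. The fit without intensity trend left 1 lower and centring left 0 lower. The permutation test, which no gene could pass, left 0. Without 1 library 7 to 14 passed, with 0 to 2 lower, and 7 passed without CTEPH s3 or Sham s6. The causes of the other changes were not tested.

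Uncalled differences near 0 turned sign. Centring gave SLC25A1 0.010, SLC25A10 0.029, SLC25A24 0.012, SLC25A34 0.017 and SLC25A46 0.0080. Library weights gave SLC25A10 0.16, SLC25A16 -0.11 and SLC25A32 -0.019. Without 1 library the sign turned in 14 carriers, whose differences ran from -0.10 to 0.018 in SLC25A1, -0.15 to 0.15 in SLC25A10, -0.041 to 0.13 in SLC25A11, -0.062 to 0.095 in SLC25A12, -0.079 to 0.10 in SLC25A16, -0.014 to 0.13 in SLC25A17, -0.20 to 0.13 in SLC25A24, -0.078 to 0.094 in SLC25A32, -0.20 to 0.17 in SLC25A34, -0.37 to 0.12 in SLC25A35, -0.17 to 0.044 in SLC25A38, -0.075 to 0.25 in SLC25A42, -0.037 to 0.15 in SLC25A43 and -0.14 to 0.041 in SLC25A46.

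Pair differences, CTEPH minus Sham, ran without 1 library from 0.78 to 1.14 for SLC25A33 with SLC25A36, from 0.60 to 1.0 for SLC25A39 with SLC25A40 and from -0.20 to 0.15 for SLC25A4 with SLC25A6. Ranks within a library in place of log2 values changed no call among the pairs.

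With 5 pigs a group, carriers that miss the threshold are not shown to be unchanged. SLC25A45 rests on 1 to 44 recovered counts per library, and total depth is unknown. No paired analysis was possible because each library number occurs once.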
